A study of Mus musculus with 8 samples.

Results

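The C/EBP genes of brown adipose tissue (BAT) were followed in mRNA sequencing of 8 mice. They are the 6 genes *Cebpa*, *Cebpb*, *Cebpd*, *Cebpe*, *Cebpg* and *Cebpz*, out of 44674 genes in the deposited tables. The family was chosen by its names, but it was taken up because *Cebpd* stood out in the genotype contrast of these same mice when it was fitted with DESeq2. The difference of *Cebpd* between the genotypes is therefore described here and not tested, and its relatives serve as the comparison within each mouse.

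The 4 Ox1RΔSERT mice carry floxed alleles of the orexin receptor gene *Hcrtr1* (Ox1R fl/fl) together with Sert-Cre (tg/wt), a Cre transgene named after the serotonin transporter gene *Slc6a4*. The 4 control mice are littermates with the same floxed alleles and no Cre, so the deletion and the presence of Cre cannot be told apart. All were males on a high-fat diet from week 4 to week 18 of age, and BAT was taken at the end of a hyperinsulinemic-euglycemic clamp, in which insulin is infused while glucose is given to hold blood glucose steady. The recombination is directed at serotonergic cells and not at fat cells, and *Hcrtr1* had 0 to 5 counts per library in BAT, so its level here does not check the genotype labels. The tissue label was checked against defining markers, which were abundant in every mouse: *Ucp1*, the uncoupling protein of brown adipocytes, ranged from 1860 to 2640 TPM (transcript abundance corrected for length and depth), *Cidea*, a lipid droplet protein of brown fat, from 749 to 1190, and the adipokine gene *Adipoq* from 288 to 435.

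Libraries held 35852708 to 50063339 counts, of which 33.62% to 46.84% came from the mitochondrial genome. Mice 11601 and 11708, both Ox1RΔSERT, stood apart from the other 6 on the first principal component, at 59.3 and 77 against -44.3 to 7.1, and this component held 53.6% of the variance. Values without them are given beside the results on *Cebpd* and its tested relatives and beside most list medians, but not for every gene named.

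C/EBP proteins are transcription factors of the basic leucine zipper (bZIP) class. They bind DNA as dimers, with one another or with related bZIP proteins, and a basic region in each partner contacts the DNA. In fat cell differentiation C/EBPβ and C/EBPδ are induced first, by cyclic AMP and glucocorticoid signals, and they switch on *Cebpa* and *Pparg*, which then hold the adipocyte program in place. In brown fat C/EBPβ also works with PRDM16 on the thermogenic genes. C/EBPδ is otherwise known as an acute phase factor, induced through STAT3 by cytokines of the IL-6 family. C/EBPγ has a bZIP domain but no activation domain of its own, and C/EBPε acts in granulocyte maturation. *Cebpz* shares only the name: its product binds CCAAT elements, lacks the bZIP domain and belongs to the assembly machinery of the large ribosomal subunit.

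The stretch of coding sequence below encodes part of the basic region and is given for 4 relatives of *Cebpd*. It was picked as the 60-base stretch of *Cebpb* with the closest in-frame match in *Cebpa*, *Cebpe* and *Cebpg*. Identity among these 4 is therefore high by selection. Capitals mark the 34 of 60 bases that are identical in all 4. The letters are from the mouse reference genome GRCm38 on the coding strand of each gene, 5′ to 3′, at chr2:167689685-167689744 (plus strand) for *Cebpb*, chr7:35120265-35120324 (plus) for *Cebpa*, chr14:54710716-54710775 (minus) for *Cebpe* and chr7:35050594-35050653 (minus) for *Cebpg*.
Cebpb: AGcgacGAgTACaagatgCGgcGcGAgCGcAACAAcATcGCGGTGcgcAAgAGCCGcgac
Cebpa: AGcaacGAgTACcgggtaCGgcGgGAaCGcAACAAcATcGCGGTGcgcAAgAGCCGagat
Cebpe: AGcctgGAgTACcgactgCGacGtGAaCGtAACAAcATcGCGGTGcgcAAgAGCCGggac
Cebpg: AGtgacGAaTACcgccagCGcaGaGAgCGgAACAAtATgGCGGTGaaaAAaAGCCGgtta
*Cebpa* matched *Cebpb* at 51 of the 60 bases, *Cebpe* at 48 and *Cebpg* at 39. The best window of the *Cebpz* coding sequence matched at 28 of 60 and is not shown. *Cebpz* had no part in the choice of the stretch, so its lower match is not a like comparison. The coding sequences ran from 450 bases in *Cebpg* through 804 in *Cebpd*, 843 in *Cebpe*, 888 in *Cebpb* and 1077 in *Cebpa* to 3156 in *Cebpz*. *Cebpd*, *Cebpb* and *Cebpa* coding sequence was rich in G and C, at 70.4%, 73.4% and 71.9%, against 50.7% in *Cebpg* and 44.3% in *Cebpz*.

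In the GENCODE M21 annotation of GRCm38, *Cebpd* (ENSMUSG00000071637) is a gene of 1 exon on chromosome 16, from 15887286 to 15891031 on the plus strand. *Cebpa* (ENSMUSG00000034957; chromosome 7, 35119293 to 35121928, plus) and *Cebpb* (ENSMUSG00000056501; chromosome 2, 167688915 to 167690418, plus) also have 1 exon each. *Cebpg* (ENSMUSG00000056216) lies near *Cebpa*, from 35046422 to 35056573 on the minus strand of chromosome 7. *Cebpe* (ENSMUSG00000052435) lies on chromosome 14 from 54710360 to 54712174, and *Cebpz* (ENSMUSG00000024081) on chromosome 17 from 78919006 to 78937066, both on the minus strand, and the longest *Cebpz* transcript has 16 exons. Some exons overlap a neighbour on the opposite strand: 562 of the 3746 exonic bases of *Cebpd* lie in exons of *Spidr*, a DNA repair scaffold gene, 312 of 1504 in *Cebpb* lie in *Tmem189*, and 171 of 4658 in *Cebpz* lie in *Cebpzos*. The libraries were stranded, but the strand setting of the quantification is not given in the sources used here. The level of *Spidr* was 1.27 to 2.67 TPM and its log2 fold change between the genotypes was 0.07 (SE 0.13; adjusted p = 0.803, edgeR).

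Levels of different genes were compared by TPM, which corrects for transcript length. *Cebpb* was the most abundant member in every mouse, at a mean of 223 TPM over the 8 mice (range 173 to 356), and made up 54.9% to 72.5% of the summed TPM of the family. *Cebpa* came second at 63.9 TPM (35.3 to 94.4). *Cebpd*, at 25.6 TPM (12.6 to 51.3), and *Cebpg*, at 24.7 TPM (19.1 to 30.8), followed at means that lay closer than their spread. *Cebpz* was at 6.8 TPM (5.24 to 8.46), and *Cebpe* at 0.0257 TPM was all but absent. Between the other neighbours in this order the higher gene was higher in 8 of 8 mice, but *Cebpd* was above *Cebpg* in only 4 of 8, which were the 4 Ox1RΔSERT mice.

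**Figure D1:**
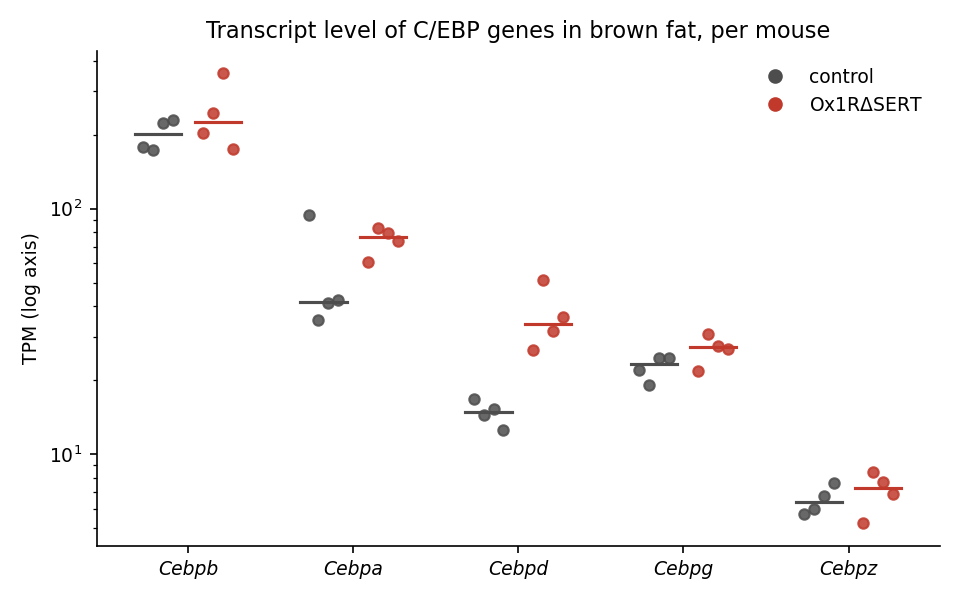
TPM on a log axis of the 5 expressed C/EBP genes, 1 point per mouse, with the median of each genotype as a line. *Cebpb* lies highest in every mouse, and the points of *Cebpd* lie below those of *Cebpg* in the controls (12.6 to 16.8 against 19.1 to 24.6) and move up past them in Ox1RΔSERT mice (26.5 to 51.3 against 21.9 to 30.8).

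The place of *Cebpd* in this order depended on the length used. When counts were divided by the longest annotated transcript instead, the normalised CPM per kilobase were 69.4 for *Cebpb*, 47.5 for *Cebpa*, 22.9 for *Cebpg*, 8.77 for *Cebpz* and 4.02 for *Cebpd*, which put *Cebpd* below *Cebpz*. The ratio of counts to TPM implied that *Cebpd* was treated as 0.115 times as long as *Cebpz*, whereas its annotated length was 0.92 times that of *Cebpz*. For *Cebpb* the implied and annotated values were 0.0828 and 0.37. Levels of *Cebpd* against other genes therefore hold only on the TPM scale. The relation of the scales also differed between mice: normalised CPM divided by TPM was 0.664 to 0.71 for *Cebpd* in the controls, 0.677 in 11243 and 0.673 in 11613, but 0.483 in 11601 and 0.441 in 11708.

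*Cebpd* was higher in every Ox1RΔSERT mouse than in any control. Its normalised CPM values (counts relative to library size, scaled between libraries by TMM) were 11.5, 10.3, 10.2 and 8.39 in control mice 10684, 11253, 11560 and 11563. In Ox1RΔSERT mice 11243, 11601, 11613 and 11708 they were 17.9, 24.8, 21.3 and 16.0. These values rest on 325 to 450 counts per control and 777 to 1258 per Ox1RΔSERT library. The groups did not overlap, and the controls lay within a narrow band. The order within the Ox1RΔSERT group depended on the scale: mouse 11708 was the lowest of the 4 by normalised CPM, but by TPM the values were 26.5, 51.3, 31.7 and 36.3, so that 11601 and 11708, the mice that stood apart on the first component, were the highest. By TPM the groups did not overlap either, with 12.6 to 16.8 in the controls.

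The means were 10.1 ± 1.3 normalised CPM in controls and 20.0 ± 3.89 in Ox1RΔSERT mice (SD, n = 4 each), a fold of 1.98 and a log2 fold change of 0.99 (SE 0.16). As the values by which the gene came into view, DESeq2 gave it a log2 fold change of 0.98 with an adjusted p of 0.000723, and edgeR's quasi-likelihood test gave an adjusted p of 0.316, with a range of 0.000723 to 0.996 over 16 alternative fits. edgeR called 0% of 14489 tested genes at an adjusted p under 0.05, with 2201 genes at an unadjusted p under 0.05 and 0.316 as its lowest adjusted p, and DESeq2 called 1.75% of 15179 (234 higher and 32 lower in Ox1RΔSERT mice). Of all tested genes, 7.35% had a log2 fold change as high as that of *Cebpd* or higher, and 2.69% were higher in all Ox1RΔSERT mice than in all controls, against 2.81% that were lower in all.

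On normalised counts it was 0.87 on the log2 scale without mouse 11601, 1.08 without 11708 and 0.96 without both, and 0.99 when mitochondrially encoded genes were left out of the library sizes. On log2 TPM with a pseudocount of 0.1 it was 1.26 with all mice and 0.97 without both, or 0.94 and 0.83 once the median over all genes was subtracted. The mitochondrial share was lower in mice 11601, 11613 and 11708 (33.62%, 34.0% and 36.17%) than in the controls (39.99% to 46.84%), and was 44.62% in mouse 11243. Its part in the *Cebpd* difference was not tested. In bulk tissue a change in the number of cells that express a gene and a change in the RNA per cell cannot be told apart.

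**Figure D2:**
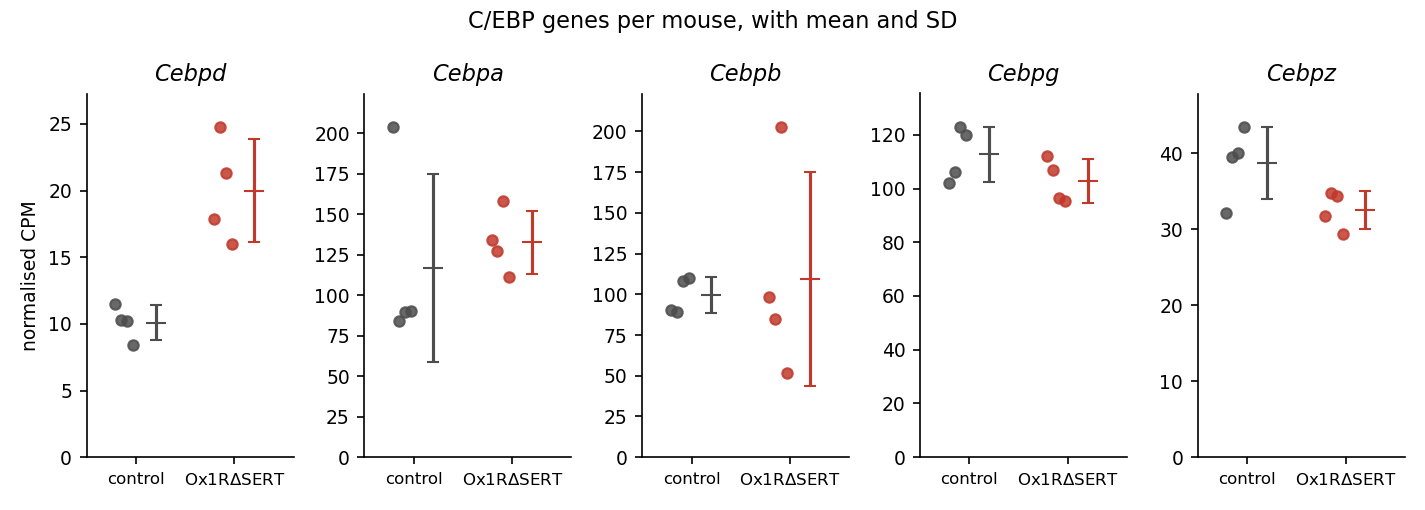
Normalised CPM of 5 C/EBP genes, 1 point per mouse, with the mean and SD of each genotype beside the points (n = 4 each) and a separate axis from 0 for each gene. For *Cebpd* all Ox1RΔSERT points (16.0 to 24.8) lie above all control points (8.39 to 11.5), while the points of the other 4 genes overlap between the genotypes.

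The other 4 expressed members did not separate the genotypes, and none passed the test. *Cebpa*, which holds mature adipocytes in their differentiated state, had 204, 83.8, 89.4 and 90.1 normalised CPM in the controls (10684, 11253, 11560 and 11563) and 134, 127, 158 and 111 in Ox1RΔSERT mice (11243, 11601, 11613 and 11708). A single control, 10684, was far above its group and above all other mice. The log2 fold change of *Cebpa* was 0.18 (SE 0.29; adjusted p = 0.776, edgeR), and it was 0.59 without that control (adjusted p = 0.306, edgeR; 0.229 to 0.996 over the alternatives). Without mice 11601 and 11708 it was 0.33. All 4 Ox1RΔSERT mice were above the other 3 controls.

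*Cebpb*, the most abundant member and the partner of *Cebpd* in early differentiation, had 90.4, 89.1, 108 and 110 normalised CPM in the controls and 98.1, 85.1, 203 and 51.4 in Ox1RΔSERT mice. The Ox1RΔSERT group held both the highest value, in 11613, and the lowest, in 11708, and its SD of 65.3 compared with 11.3 in the controls. The log2 fold change was 0.14 (SE 0.36; adjusted p = 0.873, edgeR) and its sign rested on 1 mouse, since it was -0.35 without 11613. Without 11601 and 11708 it was 0.60.

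*Cebpg*, whose product dimerises with other bZIP factors, was the steadiest member: 102, 106, 123 and 120 normalised CPM in the controls and 112, 107, 96.5 and 95.3 in Ox1RΔSERT mice. The log2 fold change was -0.14 (SE 0.10; adjusted p = 0.503, edgeR). *Cebpz*, the ribosome assembly factor, had 32.2, 39.5, 40.0 and 43.5 in the controls and 31.8, 34.8, 34.4 and 29.4 in Ox1RΔSERT mice, a log2 fold change of -0.25 (SE 0.11; adjusted p = 0.326, edgeR). Without mice 11601 and 11708 these values were -0.11 and -0.23. The other 3 controls were above all Ox1RΔSERT mice, while control 10684 lay among them. On the TPM scale the differences of *Cebpg* and *Cebpz* turned positive, at 0.23 and 0.09 with a pseudocount of 1, but there the median of all genes was itself shifted by 0.23, and relative to it they were -0.00 and -0.14, while *Cebpd* was at 0.98.

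*Cebpe*, the granulocyte member, was at the limit of detection. It had 0, 1, 0 and 1 counts in the controls and 0, 2, 0 and 6 in Ox1RΔSERT mice, and it was left out of the test by the filter on low counts. The limit that a count of 0 allows, 3 counts, corresponds to 0.0592 to 0.0951 normalised CPM per library. Only mouse 11708 exceeded it, at 0.123, and no fold is given.

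Set against its relatives within each mouse, *Cebpd* was on average higher relative to all 4 in Ox1RΔSERT mice. The scaling between libraries drops out of these TPM ratios, but the relation of counts to TPM, which differed between genes and mice, does not. The TPM ratio of *Cebpd* to *Cebpg* was 0.759, 0.76, 0.619 and 0.513 in the controls and 1.21, 1.67, 1.14 and 1.36 in Ox1RΔSERT mice. The ratio to *Cebpz* was 1.65 to 2.94 in the controls and 4.11 to 6.07 in Ox1RΔSERT mice. Neither ratio overlapped between the genotypes. As ratios of counts, *Cebpd* to *Cebpg* did not overlap either, at 0.0698 to 0.113 in the controls and 0.16 to 0.233 in Ox1RΔSERT mice. The log2 ratio was higher in Ox1RΔSERT mice by 1.02 for *Cebpg* (pooled SD 0.26) and by 1.16 for *Cebpz* (pooled SD 0.30).

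Against the 2 most abundant members the separation was less complete. The ratio of *Cebpd* to *Cebpb* was 0.0944, 0.0839, 0.0683 and 0.0548 in the controls and 0.130, 0.208, 0.089 and 0.207 in Ox1RΔSERT mice, where 11613, the mouse with the most *Cebpb*, fell inside the control range. The ratio to *Cebpa* was 0.178 to 0.411 in the controls and 0.399 to 0.615 in Ox1RΔSERT mice, again with 3 of 4 mice above all controls. These log2 ratios were higher by 1.02 (pooled SD 0.48) and 0.68 (pooled SD 0.43). As ratios of counts, *Cebpd* to *Cebpa* did not overlap, at 0.0565 to 0.123 in the controls and 0.133 to 0.195 in Ox1RΔSERT mice, while *Cebpd* to *Cebpb* still did, at 0.0759 to 0.128 and 0.105 to 0.311. Since *Cebpd* was selected on this contrast, no p-value is attached to the ratios.

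**Figure D3:**
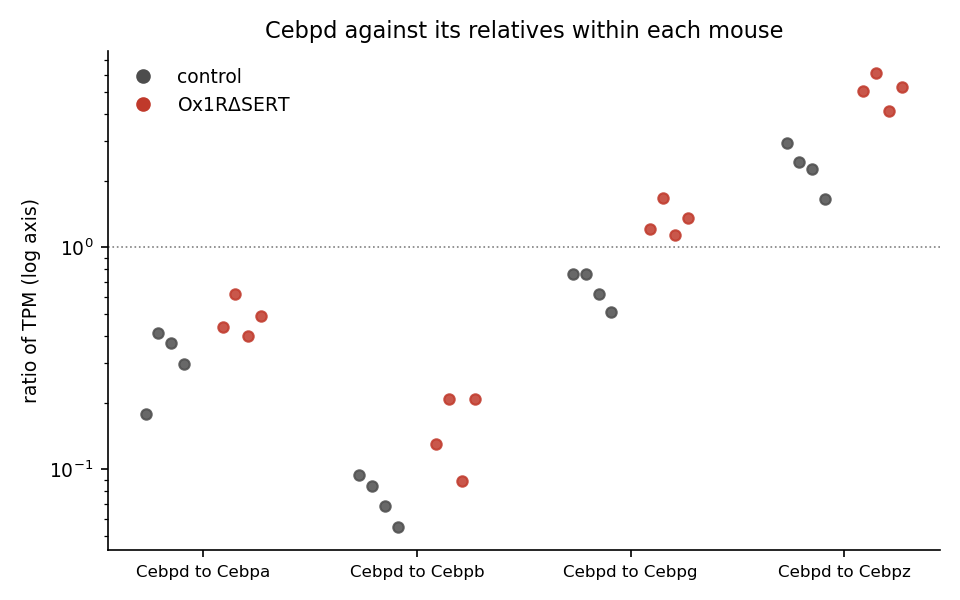
Ratio of *Cebpd* TPM to the TPM of each of 4 relatives on a log axis, 1 point per mouse, with a dotted line at equal levels. The ratio to *Cebpg* lies below the line in all controls (0.513 to 0.76) and above it in all Ox1RΔSERT mice (1.14 to 1.67), and the ratios to *Cebpa* and *Cebpb* overlap in 1 mouse.

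As a share of the summed TPM of the family, *Cebpd* ranged from 3.97% to 12.2% over the 8 mice, *Cebpg* from 5.51% to 8.38% and *Cebpa* from 13.2% to 29.8%.

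Genes around the family were then described as lists, each by its counts and by its median log2 fold change, which over all tested genes was 0.0. With edgeR's adjusted p no member of any list was called. At an unadjusted p under 0.05, 10.2% of all tested genes were higher and 4.96% lower in Ox1RΔSERT mice, and the counts below at that level are to be read against those shares. Counts of genes without overlap are to be read against 2.69% higher and 2.81% lower.

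Upstream of *Cebpd*, the receptors and kinases of IL-6 signalling had values slightly above those of controls. Of 9 genes 8 had a positive log2 fold change, 2 of them with an unadjusted p under 0.05, and the median was 0.26, or 0.04 without mice 11601 and 11708. *Il6st*, the shared signal-transducing receptor, was at 0.22 (SE 0.14), the kinase genes *Jak1* and *Jak2* at 0.26 (SE 0.14) and 0.59 (SE 0.20), and *Stat3* itself at 0.25 (SE 0.19; adjusted p = 0.518, edgeR). Without mice 11601 and 11708 these 4 values were 0.04, 0.03, 0.19 and 0.12. *Il6* was too low to be tested.

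Early targets of STAT3, of which *Cebpd* is one, lay further from the controls. Of 6 genes 5 had positive log2 fold changes, with a median of 1.05, or 0.48 without mice 11601 and 11708, and 3 were higher in all Ox1RΔSERT mice than in all controls, as were 2.69% of all tested genes. *Socs3*, the feedback inhibitor of the pathway, had 17.0, 4.53, 13.1 and 5.78 normalised CPM in the controls and 18.8, 48.2, 19.3 and 43.0 in Ox1RΔSERT mice. Its log2 fold change was 1.68 (SE 0.49; adjusted p = 0.316 by edgeR and 0.029 by DESeq2), and 0.92 without mice 11601 and 11708. In 11243 and 11613 *Socs3* was barely above the highest control, and for *Cebpd* the lowest Ox1RΔSERT value was 16.0 and the highest control value 11.5.

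The AP-1 genes *Junb* and *Fos* had log2 fold changes of 0.90 (SE 0.22) and 1.67 (SE 0.52), and the interleukin-4 receptor gene *Il4ra* 1.19 (SE 0.27), each at an adjusted p of 0.316 by edgeR, while DESeq2 gave 0.0289, 0.0371 and 0.00644. Without mice 11601 and 11708 the log2 fold changes were 0.59, 0.38 and 0.66, and the groups overlapped for *Fos* with all mice. *Junb* was at 12.1 to 20.0 normalised CPM in the controls and at 22.4, 39.7, 25.4 and 31.1 in Ox1RΔSERT mice. *Bcl3*, a partner of NF-κB, was at 0.16 (SE 0.32) and the kinase gene *Pim1* at -0.59 (SE 0.32), so the members differed in sign.

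Genes induced by glucocorticoids, a signal that also induces *Cebpd*, were split. Of 13 genes 6 had positive and 7 negative log2 fold changes, with a median of -0.04, or -0.02 without mice 11601 and 11708. The metallothionein genes *Mt1* and *Mt2* were at 0.10 (SE 0.18) and 0.36 (SE 0.26; 0.18 without mice 11601 and 11708), and *Pdk4*, a brake on glucose oxidation, at 0.40 (SE 0.28). *Angptl4*, an inhibitor of lipoprotein lipase and the gene of lowest p in this list, did not overlap between the genotypes. It had 83.1, 98.6, 53.0 and 62.9 normalised CPM in the controls and 123, 170, 150 and 162 in Ox1RΔSERT mice. By normalised CPM its order of mice within the groups was not that of *Cebpd*. The *Cebpd* order among Ox1RΔSERT mice depended on the scale. By TPM *Cebpd* was at 26.5, 51.3, 31.7 and 36.3 in 11243, 11601, 11613 and 11708. That is the order of these mice by normalised CPM of *Angptl4*. The log2 fold change of *Angptl4* was 1.02 (SE 0.20; adjusted p = 0.316 by edgeR and 0.00189 by DESeq2), or 0.88 without mice 11601 and 11708.

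Among partners in adipocyte differentiation, the inducers had a median of -0.03 over 13 genes, none with an unadjusted p under 0.05. The median was -0.04 without mice 11601 and 11708. *Pparg*, the master regulator that C/EBPβ and C/EBPδ switch on, was at -0.03 (SE 0.13; adjusted p = 0.922, edgeR), *Klf15* at -0.23 (SE 0.23), the lipogenic factor *Srebf1* at -0.16 (SE 0.49) and *Egr2* (Krox20), an early inducer of *Cebpb*, at 1.35 (SE 0.62) with all mice and -0.02 without 11601 and 11708. Of 7 inhibitors 6 had positive values, with a median of 0.38, or 0.32 without those mice. *Klf2* was at 0.31 (SE 0.21) and the Notch target *Hes1* at 0.12 (SE 0.17).

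*Ddit3* (CHOP), a C/EBP relative that forms inactive dimers with the others, was the inhibitor with no overlap between the genotypes. It had 11.5, 11.8, 11.8 and 13.9 normalised CPM in the controls and 14.0, 14.0, 16.5 and 19.3 in Ox1RΔSERT mice, a log2 fold change of 0.38 (SE 0.13; adjusted p = 0.316 by edgeR and 0.169 by DESeq2). The gap between the groups was small beside their ranges. Over the 11 related bZIP factors the median was -0.10, with 5 positive and 6 negative: *Atf4* was at -0.19 (SE 0.24), *Atf5* at -0.34 (SE 0.26) and the clock output gene *Tef* at -0.30 (SE 0.14). The median was 0.01 without mice 11601 and 11708, and these 3 were at -0.02, -0.08 and -0.22.

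Genes that control C/EBP proteins after transcription were close to the controls. Of 10 genes 9 had negative log2 fold changes, but the median was only -0.11. *Gsk3a* and *Gsk3b*, kinases that phosphorylate C/EBPα and C/EBPβ, were at -0.14 (SE 0.13) and -0.21 (SE 0.09), and *Cop1*, a ubiquitin ligase that acts on C/EBPα with the Tribbles proteins, was at -0.18 (SE 0.09). None passed edgeR's test, with adjusted p from 0.326 to 0.593 among these 3. The 5 other ribosome assembly factors listed had a median of 0.09, and *Cebpz* was at -0.25. *Noc2l* was at 0.19 (SE 0.09), *Noc3l* at 0.08 (SE 0.10), *Noc4l* at 0.33 (SE 0.14), *Nop14* at -0.08 (SE 0.10) and *Pdcd11* at 0.09 (SE 0.16). These factors need not act on the same ribosomal subunit as the product of *Cebpz*.

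Downstream, the targets of C/EBP factors in adipocytes were balanced, with 5 of 11 positive, 6 negative and a median of -0.03, or 0.18 without mice 11601 and 11708. *Fabp4*, the fatty acid binding protein of adipocytes, was at -0.29 (SE 0.16), *Scd1*, a fatty acid desaturase, at 0.63 (SE 0.34) and *Pck1*, used there for glycerol synthesis, at 0.02 (SE 0.19). They were at -0.12, 0.48 and 0.27 without mice 11601 and 11708. The insulin receptor gene *Insr* was lower in all Ox1RΔSERT mice than in all controls, at 135 ± 6.75 against 108 ± 15.9 normalised CPM (SD, n = 4 each) and a log2 fold change of -0.33 (SE 0.12; adjusted p = 0.316 by edgeR and 0.193 by DESeq2), or -0.15 without mice 11601 and 11708.

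The brown adipocyte program, which C/EBPβ shares with PRDM16, had 8 of 10 negative values and a median of -0.36, or -0.17 without those mice. *Ucp1* was at -0.54 (SE 0.18), *Cox7a1* and *Cox8b*, subunits of cytochrome oxidase, at -0.40 (SE 0.17) and -0.33 (SE 0.21). Without those mice these 3 were at -0.34, -0.13 and 0.01. *Elovl3*, an elongase of very long-chain fatty acids, was lower in all Ox1RΔSERT mice: 80.2, 130, 145 and 125 normalised CPM in the controls and 76.7, 27.1, 67.9 and 57.2 in Ox1RΔSERT mice. The gap between the nearest mice was small, and the log2 fold change was -1.07 (SE 0.31; adjusted p = 0.316 by edgeR and 0.0406 by DESeq2), or -0.73 without those mice.

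The median of the inflammatory targets of C/EBPβ and C/EBPδ rested on mice 11601 and 11708. Of 14 tested genes 11 had positive values, 4 of them with an unadjusted p under 0.05, and the median was 0.86 with all mice and 0.05 without 11601 and 11708. The 3 most abundant genes of this list had negative values smaller than the spread between mice: *Hp* (haptoglobin) was at -0.09 (SE 0.32), the complement gene *C3* at -0.17 (SE 0.22) and *Orm1* at -0.35 (SE 0.27). Other acute phase genes, picked out after their values were seen, had positive ones: *Serpina3n* was at 1.05 (SE 0.48), *Lbp* at 1.55 (SE 0.46) and *Saa3*, which did not overlap between the genotypes, at 1.25 (SE 0.56), or 0.64, 0.67 and 1.30 without mice 11601 and 11708. *Ptx3*, a long pentraxin, had 10.9, 2.28, 4.63 and 8.51 normalised CPM in the controls and 25.3, 42.3, 14.1 and 55.0 in Ox1RΔSERT mice, without overlap. Its log2 fold change was 2.37 (SE 0.54; adjusted p = 0.316 by edgeR and 0.00167 by DESeq2), and 1.58 without mice 11601 and 11708.

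Granulocyte targets of C/EBPε were mostly too low to be tested, as was the factor itself. The 5 tested genes of 11 all had positive values with a median of 1.15, or 0.38 without mice 11601 and 11708: *Itgam* was at 1.75 (SE 0.53), *Csf3r* at 1.30 (SE 0.48), *S100a9* at 1.15 (SE 0.52), *S100a8* at 0.88 (SE 0.55) and *Mmp8* at 0.53 (SE 0.54). Without those mice they were at 0.30, 0.50, 0.81, 0.37 and 0.38. Those 5 are also expressed by other myeloid cells, and the granule genes *Ltf*, *Camp*, *Ngp*, *Elane*, *Mpo* and *Ctsg* did not pass the filter.

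**Figure D4:**
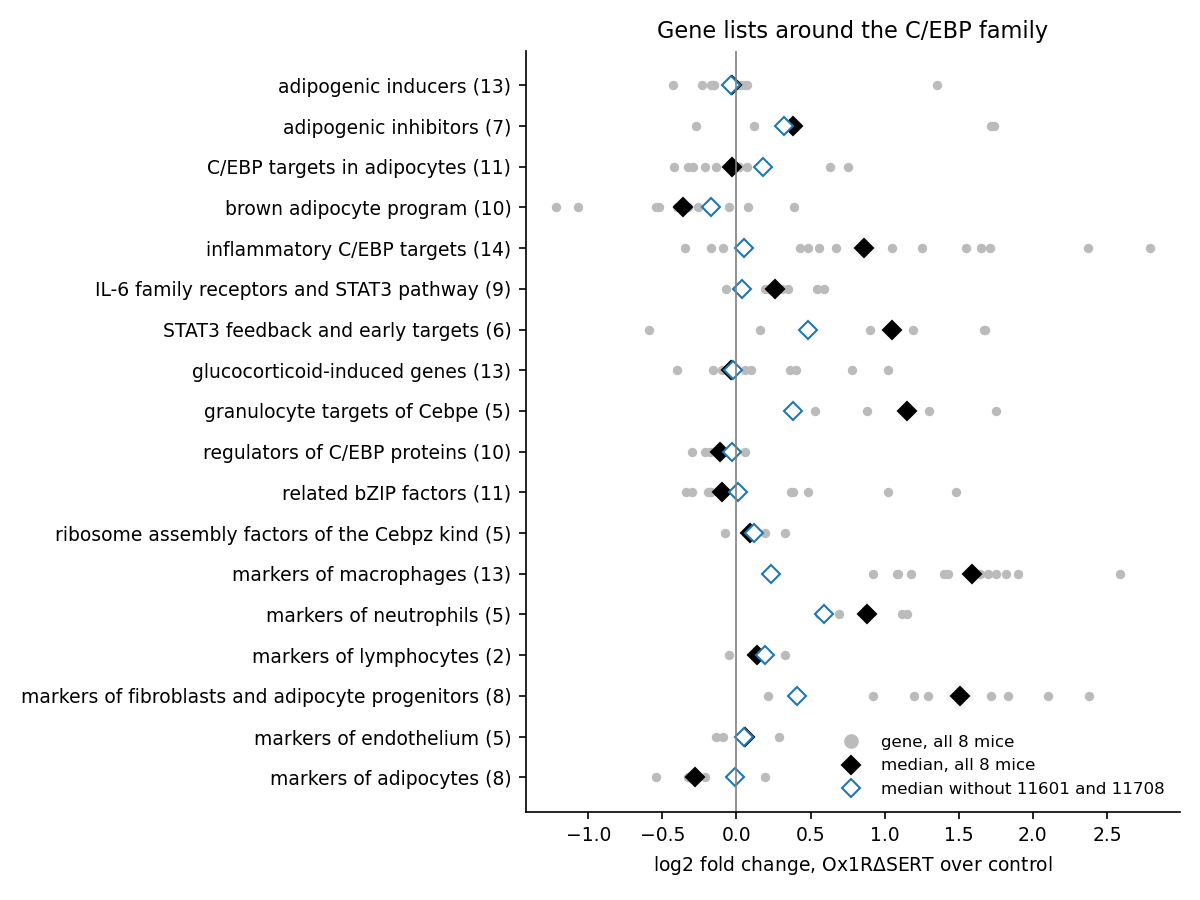
Log2 fold changes, Ox1RΔSERT over control, of the tested genes of 18 lists (grey points, number of genes in brackets), with the median over all 8 mice (filled diamond) and without mice 11601 and 11708 (open diamond). The median of the macrophage markers falls from 1.59 to 0.23 and that of the inflammatory targets from 0.86 to 0.05, and that of the STAT3 targets from 1.05 to 0.48. The muscle markers, which rest on single mice, are not drawn.

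Markers of some cell types moved with these lists, and their part in the list medians was not tested. Lymphocyte and endothelial markers had medians of 0.14 and 0.06. Some markers also stood in the lists above, so the lists are not independent. These were *Itgam*, *S100a8* and *S100a9* among the granulocyte targets and *Adipoq*, *Plin1* and *Fabp4* among the adipocyte targets. *Ucp1*, *Cidea* and *Cox8b* were also in the brown adipocyte program. All 13 macrophage markers had positive log2 fold changes and an unadjusted p under 0.05, with a median of 1.59, or 0.23 without mice 11601 and 11708. *Lyz2* was at 1.59 (SE 0.60), *C1qa* at 0.92 (SE 0.40), *C1qb* at 1.18 (SE 0.44) and the Fc receptor gene *Fcgr1* at 2.59 (SE 0.71), and without those mice at 0.03, 0.04, 0.17 and 0.70. Their summed TPM was 95.5 to 187 in the controls and 138, 976, 194 and 699 in Ox1RΔSERT mice 11243, 11601, 11613 and 11708, so that only 11601 and 11708 stood far above. All 8 markers of fibroblasts and adipocyte progenitors were positive too, with a median of 1.51, or 0.41 without those mice, with *Pdgfra* at 1.20 (SE 0.34), *Dcn* at 0.92 (SE 0.36), *Col1a1* at 2.38 (SE 0.72) and *Col3a1* at 2.10 (SE 0.69), and without those mice at 0.56, 0.25, 0.57 and 0.43. Their summed TPM was 97.1 to 204 in the controls and 156, 1570, 255 and 681 in Ox1RΔSERT mice. The 8 adipocyte markers had a median of -0.28, or -0.01 without them, and a summed TPM of 14900 to 16300 in controls and 13600 to 17400 in Ox1RΔSERT mice.

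The 5 tested neutrophil markers all had positive values, with a median of 0.88, or 0.59 without mice 11601 and 11708. They summed to 7.04 to 42.3 TPM in controls and 19.6 to 88 in Ox1RΔSERT mice, and *Ly6g* and *Ngp* did not pass the filter. Lymphocyte markers stayed at or below 0.852 TPM in every mouse, with 5 of the 7 untested. Endothelial markers summed to 45 to 54.8 TPM in controls and 55.2 to 79 in Ox1RΔSERT mice, without overlap on the TPM scale, but their median log2 fold change on normalised counts was 0.06. Skeletal muscle markers summed to 28.4 to 597 and 12.1 to 1140 TPM.

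*Cebpd* and the macrophage markers were set side by side in each mouse. In Ox1RΔSERT mice 11243 and 11613 these markers were at 138 and 194 TPM, within or just above the control range of 95.5 to 187, and *Cebpd* was at 26.5 and 31.7 TPM against 12.6 to 16.8 in the controls. In 11708 and 11601, with 699 and 976 TPM of macrophage markers, *Cebpd* was at 36.3 and 51.3 TPM. Within the Ox1RΔSERT group both values thus had the same order of mice on the TPM scale. By normalised CPM the order differed, with *Cebpd* at 17.9, 24.8, 21.3 and 16.0 in 11243, 11601, 11613 and 11708. Without 11601 and 11708 the *Cebpd* difference was 0.97 on log2 TPM, against 1.26 with them. On normalised counts it was 0.96 without them and 0.99 with them. The part of the macrophage markers in this difference was not tested.

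**Figure D5:**
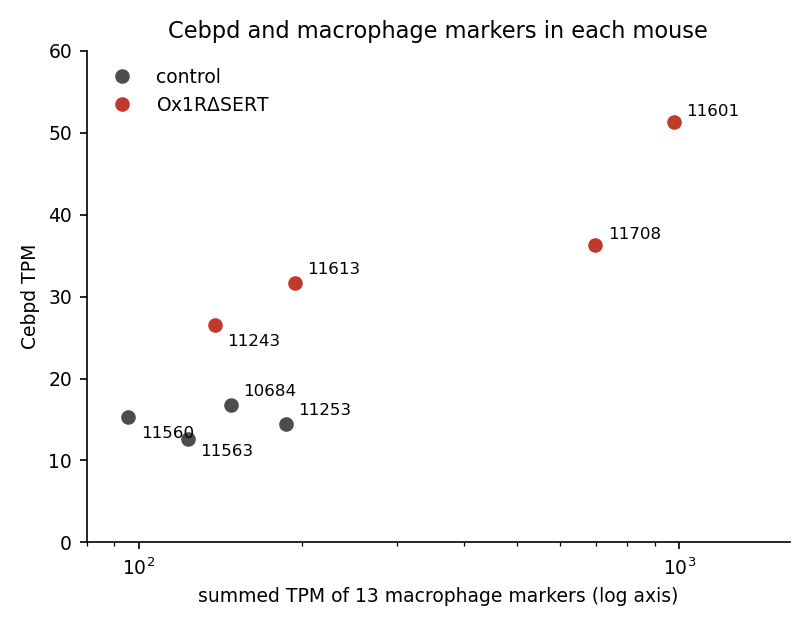
*Cebpd* TPM against the summed TPM of 13 macrophage markers (log axis), 1 labelled point per mouse. Mice 11243 and 11613 lie above all controls in *Cebpd* (26.5 and 31.7 against at most 16.8 TPM) at macrophage marker sums of 138 and 194 TPM, beside 95.5 to 187 in the controls. By normalised CPM, which is not drawn, *Cebpd* in mouse 11708 was the lowest of the Ox1RΔSERT group (16.0).

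Last, genes with the pattern most like that of each member were looked up. Likeness was the Pearson correlation over the 8 mice of log2 normalised CPM after the mean of each genotype had been subtracted, so that the genotype difference itself did not enter, and it was computed for 10870 genes. These mice share libraries, depth and composition between genes, only 8 points enter, and the top of so many correlations is high by selection, so the values are descriptions with no p. Among the genes most like *Cebpd* were *Edem2* (r = 0.934), *Hivep2* (0.930), *Cxcl14* (0.919) and *Ift27* (0.914). Of these only *Cxcl14*, a chemokine gene, had a sizeable genotype difference of its own, at 0.67 on the log2 scale (adjusted p = 0.316, edgeR). The most opposite genes were *Pdcd4* (-0.965), *Egln3* (-0.955) and *Peg3* (-0.946), but on the TPM scale these fell to -0.247, -0.525 and -0.285, whereas the 4 positive ones kept 0.87 to 0.922.

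Within the family *Cebpd* was not close to any relative in this sense, with r of 0.484 to *Cebpa*, 0.309 to *Cebpb*, -0.174 to *Cebpg* and -0.022 to *Cebpz*. *Cebpa* was most like *Btbd2* (0.981), *P2rx5* (0.977) and *Wdr4* (0.971), a pattern in which control 10684 is the far point. *Cebpb* was most like *Orai3* (0.989), *Kctd13* (0.988) and *Mocs3* (0.984), *Cebpg* like *Gmpr* (0.985), *Eif4g2* (0.984) and *Hdgf* (0.982), and *Cebpz* like *Bdp1* (0.986), *Cdv3* (0.983) and *Sec22b* (0.979). On the TPM scale these correlations fell to 0.264 for *Gmpr* and 0.671 for *Wdr4*, and were 0.82 to 0.969 for the others. No gene named was shared between these 5 sets.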

How the data were processed

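BAT RNA of 4 control and 4 Ox1RΔSERT mice was sequenced by the authors as stranded, poly-A selected libraries. The submitters' processing notes name GRCm38.p6, STAR, Salmon 0.14.1 and DESeq2 1.26.0. The authors deposited estimated counts per gene from Salmon, not normalized, and TPM values, normalized for transcript length and summing to 1000000 in each mouse. Whether strand and GC options were used is not given in the sources used here.

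Symbols and positions were taken from GENCODE M21 (GRCm38) for 44118 of 44674 identifiers (98.8%). Estimated counts were rounded to whole numbers, filtered with filterByExpr, scaled by TMM and tested with edgeR 4.0.16 (quasi-likelihood, 2-sided, Benjamini-Hochberg over 14489 genes, threshold 0.05). Each group is 4 mice, with no covariate. The common dispersion was 0.0988, and log values used a pseudocount of 0.1. Alternatives were DESeq2 1.42.0, RLE scaling, nuclear genes only, other filters, limma 3.58.1 on log2 TPM and left-out mice. Levels per kilobase, counts of genes without overlap, counts at an unadjusted p, count ratios by mouse and log2 TPM differences without 2 mice were added after the data were seen. Fits were tested on simulated data.

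The members, the 19 gene lists and the tests were chosen with earlier results of these data known. Named genes were all members and, per list, all genes if at most 6 were tested, otherwise the 3 of highest mean TPM and the one of lowest p. Marker genes other than those of macrophages and progenitors are given as sums. For *Cebpd* the 5 most and 3 least correlated genes with a mean TPM of at least 1 are named, for other members 3. Some genes that this rule names, and 1 sequence, are not reported here. Intervals and limits from counts cover counting error only.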

Additional observations from a re-analysis of the deposited data

Results flagged for a closer look

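Within the groups of 4 mice, 56 sets of values were searched for a single mouse far from the other 3 (Dixon's test at 95%), which chance alone gives in about 1 in 20 sets, and 5 stood out. Control 10684 had 204 normalised CPM of *Cebpa*, against 83.8 to 90.1 in the other controls. The same mouse had the highest control sum of the adipocyte targets of C/EBP, at 11400 TPM, and of the adipocyte markers, at 16300 TPM. Both sums include *Fabp4*, at a mean of 7530 TPM over all mice, *Adipoq* and *Plin1*, so they are not separate observations. Skeletal muscle markers summed to 597 TPM in control 11253 and to 1140 TPM in Ox1RΔSERT mouse 11708, which were the highest of their groups. None of the 5 concerned *Cebpd* or its ratios to relatives. The cause was not tested.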

How the results depend on the processing

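The log2 fold change of *Cebpd* was positive in all 16 alternative fits, from 0.87 to 1.26, and past the threshold in 1 of them, DESeq2, where it was 0.98. DESeq2 called 266 genes where edgeR called 0, and 2201 genes had an unadjusted p under 0.05 in edgeR; no other fit called any gene. Without mice 11601 and 11708 together, 424 of 14856 genes had an unadjusted p under 0.05. On log2 TPM with a pseudocount of 1 or 0.1, *Cebpg* turned to 0.23 and 0.24 and *Cebpz* to 0.09 and 0.10, where the median of all genes was shifted by 0.23 and 0.32. *Cebpb* ranged from -0.35 to 0.37 with 1 mouse left out.

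Of 928 alternative values for genes named from lists, 28 changed sign and 10 passed the threshold, the latter all in DESeq2. On log2 TPM relative to the median of all genes, *Cop1* was at 0.11 and 0.02, *Hp* at 0.10 and 0.02, *Srebf1* at 0.23 and 0.17, *Nop14* at 0.04 and *Pparg* at 0.05. Without mice 11601 and 11708, *Cox8b* was at 0.01, *Egr2* at -0.02, *Gsk3a* at 0.06, *Klf15* at 0.09 and *Pparg* at 0.16. With 1 mouse left out, the ranges that crossed 0 were -0.04 to 0.54 for *Bcl3*, -0.31 to 0.02 for *C3*, -0.02 to 0.21 for *Hes1*, -0.26 to 0.32 for *Hp*, -0.01 to 0.29 for *Mt1*, -0.15 to 0.14 for *Pck1*, -0.06 to 0.19 for *Pdcd11*, -0.15 to 0.04 for *Pparg* and -0.43 to 0.66 for *Srebf1*. List medians moved by more than the spread between mice in 34 of 303 alternatives. The cause was not tested.

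The order of *Cebpd*, *Cebpg* and *Cebpz* by level changed with the length used. The groups hold 4 mice each, no pairing is given, and *Cebpe* was too low to be compared. No paired analysis was possible because the labels give no numbers shared between the genotypes.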
